A study of Drosophila melanogaster with 9 samples.

Results

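The genes described here encode subunits of the proteasome. They were taken by name: every probe set annotated to a single gene whose symbol begins with *Prosalpha* or *Prosbeta*, or with *Rpn* or *Rpt* and a digit. This rule found 40 of the 11982 genes that the array annotation names singly, and each of the 40 had exactly 1 such probe set, so no choice between probe sets was needed. Of these, 26 encode the subunits used throughout the body (6 alpha, 6 beta, 4 Rpt and 10 Rpn subunits) and 14 encode testis-type copies, whose symbols carry a T or an R after the subunit number. *Prosalpha1* shares its probe set with *Prosalpha1R* and was left out of the 40, although the values of that probe set are given below. *Prosbeta1*, *Rpt1*, *Rpt6*, *Rpn9* and *Rpn10* were not analysed here.

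Expression was measured in the heads of untreated adult males of 3 genotypes on Affymetrix Drosophila 2.0 arrays, with 3 arrays for each genotype and 9 in all. *BxJ* flies carry a gain-of-function mutation of *dLmo*, which encodes a LIM-domain transcriptional regulator, and *EP1306* flies carry a loss-of-function mutation of the same gene. Both lines had been out-crossed to the control stock, *w;iso*, a *w* mutant line isogenic for Chromosomes II and III, so all 3 genotypes share the *w* background. The X chromosome, which carries *dLmo* and 3 of the ubiquitous subunit genes (*Prosalpha4*, *Rpt3* and *Rpt4*), is not described as isogenic. Flies were 2 to 3 days old by the labels and 2 to 4 by the methods. According to the labels, the flies of a genotype were combined into 1 pool for RNA isolation and the RNA was divided into triplicates, whereas the methods describe 3 groups of heads, and so the spread between arrays may be technical and p-values measure only that spread. No value for depth exists for arrays, and their number limits the precision.

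The proteasome degrades proteins that have been tagged with ubiquitin. Its barrel-shaped core is built of stacked rings of alpha and beta subunits: the alpha rings form the gate and some of the beta subunits carry the proteolytic sites inside. A regulatory particle caps the barrel, with a ring of Rpt ATPases that unfold substrates and thread them inward, and Rpn subunits that bind ubiquitin chains, remove them and hold the complex together. Subunits are needed in fixed proportion, and in animals from flies to mammals their genes are known to be transcribed in concert. *Drosophila* also has duplicated subunit genes that are used mainly in the male germ line.

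The ubiquitous subunits gave bright signals in heads, and the testis-type copies lay near the lowest intensities of the arrays. Values are given as log2 of the deposited intensity plus 16, and the median deposited intensity of an array was 15.9 to 17.8. Means over the 9 arrays were 10.91 for *Prosalpha2*, 10.59 for *Prosalpha3*, 9.47 for *Prosalpha4*, 10.92 for *Prosalpha5*, 10.11 for *Prosalpha6* and 10.80 for *Prosalpha7* among the alpha subunits, and 11.43 for *Prosbeta2*, 11.26 for *Prosbeta3*, 11.35 for *Prosbeta4*, 11.41 for *Prosbeta5*, 11.15 for *Prosbeta6* and 10.84 for *Prosbeta7* among the beta subunits. In the regulatory particle they were 10.52 for *Rpt2*, 10.46 for *Rpt3*, 10.53 for *Rpt4* and 10.63 for *Rpt5*, and 10.03 for *Rpn1*, 10.99 for *Rpn2*, 10.84 for *Rpn3*, 11.31 for *Rpn5*, 11.26 for *Rpn6*, 10.36 for *Rpn7*, 10.64 for *Rpn8*, 10.98 for *Rpn11*, 10.53 for *Rpn12* and 10.68 for *Rpn13*. The 26 ubiquitous genes therefore occupied a band from 9.47 to 11.43, whereas the 14 testis-type genes lay between 4.31 and 4.56. These are probe set brightnesses, which are not comparable between genes as transcript amounts.

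**Figure D1:**
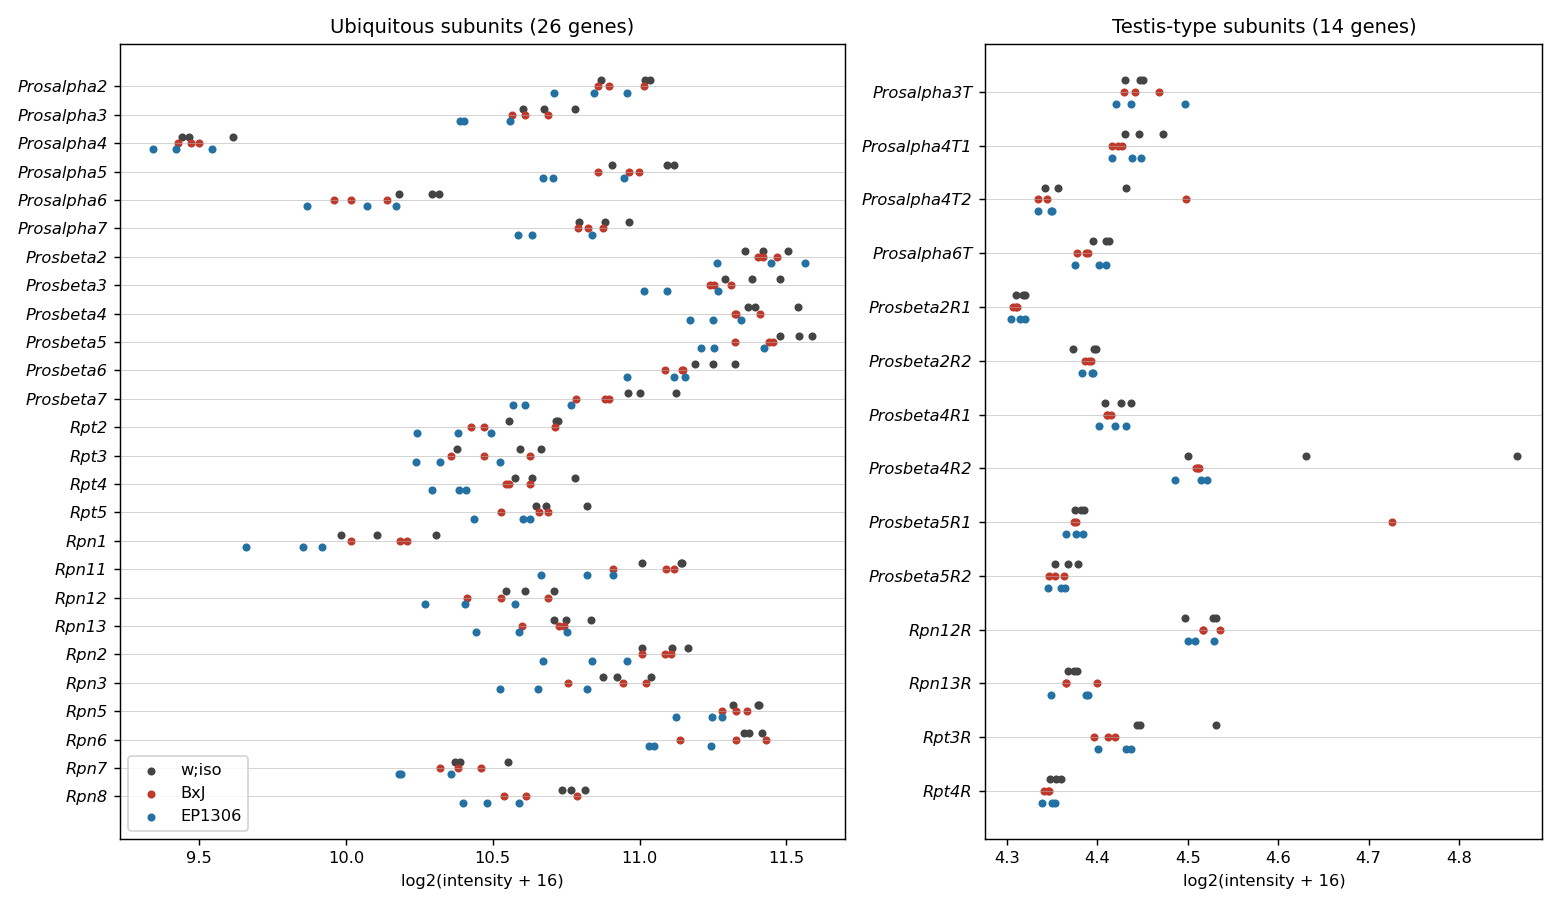
Level of each proteasome subunit gene on each of the 9 arrays, as log2(intensity + 16) on the horizontal axes, with ubiquitous subunits on the left and testis-type subunits on the right. Each point is 1 array, coloured by genotype. The *EP1306* points lie to the left for most ubiquitous subunits, and the testis-type genes stay within 4.30 to 4.86.

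In *EP1306* heads the level of nearly every ubiquitous subunit was slightly below that of control heads, and 1 gene passed the test. The median difference over the 26 genes was -0.23 on the log2 scale, an intensity (plus 16) lower by 14.8%, with single genes from -0.38 to -0.00. All 26 differences were below 0. This became 25 of 26, with *Prosbeta2* above 0, under quantile normalization, median centring or centring on probe sets of like intensity. The same happened with the spike-in level as a covariate, without *EP1306* replicate 3 and without control replicate 1. By comparison, 63.8% of the 18769 probe sets tested were below 0 with a median of -0.01. Bulk head RNA cannot tell less transcript per cell from fewer cells of a type. Among the 1486 other probe sets of like intensity, whose 9-array means lay in the same band as the ubiquitous subunits, the median was -0.05 and 64.5% were below 0. The 3 *EP1306* arrays lay below all 3 control arrays for 18 of the 26 genes. That separation was seen in 8.17% of all probe sets tested and in 316 of the 1486 of like intensity. At an unadjusted p under 0.05 (limma), 19 of the 26 were lower, against 6.38% of all probe sets and 290 of the 1486. After Benjamini-Hochberg adjustment over all probe sets, *Prosbeta7* alone was below 0.05, against 1.14% of all probe sets called in either direction and 0.687% called lower. Of the 1486 of like intensity, 43 were called lower and 19 higher. Because the subunits varied together from array to array, the 26 genes are not 26 independent observations. The probe set shared by *Prosalpha1* and *Prosalpha1R*, which is not among the 26, had a mean of 11.65 and followed the lowering less. In *EP1306* it differed from control by -0.05 (limma adjusted p = 0.856), with overlap, and from *BxJ* by 0.03. In *BxJ* it differed from control by -0.08.

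*Prosbeta7*, a non-catalytic subunit of the beta ring encoded on chromosome arm 3R, was the member with the clearest difference. Its level was 11.00, 10.96 and 11.13 in control, 10.78, 10.90 and 10.88 in *BxJ* and 10.77, 10.61 and 10.57 in *EP1306*. The 3 genotypes did not overlap: every control array lay above every *BxJ* array, and every *BxJ* array above every *EP1306* array. Over all probe sets, *BxJ* lay wholly below control in 27.6%, and *EP1306* wholly below *BxJ* in 6.10%. Relative to control, *Prosbeta7* fell by 0.38 (log2) in *EP1306* heads (95% confidence interval -0.54 to -0.23, SE 0.0675, limma adjusted p = 0.0428), an intensity (plus 16) lower by 23.2%. The exact two-sided permutation test of the same 6 arrays gave p = 0.1, the smallest that 3 against 3 allows. The difference of *BxJ* from control was -0.18 (95% confidence interval -0.33 to -0.02, limma adjusted p = 0.386), and that of *EP1306* from *BxJ* was -0.21 (95% confidence interval -0.36 to -0.05, limma adjusted p = 0.315). The call for *EP1306* is fragile: it was kept in 1 of the 9 fits that each left out an array, the one without *EP1306* replicate 1, with adjusted p-values from 0.0333 to 0.145. It was also lost, among other settings, with quantile normalization (0.0912), with the replicate number as a block (0.0811) and in a fit of the 2 genotypes alone (0.139). Its probe set is also of a type (suffix s_at) that can match more than 1 transcript, although the annotation names this gene only.

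In the rest of the beta ring, *Prosbeta5*, which carries the chymotrypsin-like site, read 11.59, 11.48 and 11.54 in control, 11.33, 11.44 and 11.46 in *BxJ* and 11.42, 11.25 and 11.21 in *EP1306*. All 3 *EP1306* arrays were below the control arrays, with a difference of -0.24 (95% confidence interval -0.39 to -0.09, limma adjusted p = 0.188). *Prosbeta2*, which carries the trypsin-like site, was the brightest beta probe set and read 11.51, 11.36 and 11.42 in control, 11.40, 11.47 and 11.42 in *BxJ* and 11.56, 11.45 and 11.26 in *EP1306*. Here the genotypes overlapped throughout, and *EP1306* contained both the highest and the lowest of the 9 arrays. The difference of *EP1306* from control was -0.00 (95% confidence interval -0.18 to 0.17, limma adjusted p = 0.991). The estimate for *Prosbeta5* lies outside this interval, but the intervals of both genes overlap. *Prosbeta2* and *Prosbeta5* were not tested against each other. The structural subunits differed from control by -0.26 for *Prosbeta3*, -0.18 for *Prosbeta4* and -0.18 for *Prosbeta6*, and the *EP1306* arrays lay below the control arrays for each of these.

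The alpha ring showed the same direction with more overlap. *Prosalpha3* read 10.78, 10.60 and 10.67 in control, 10.61, 10.69 and 10.56 in *BxJ* and 10.56, 10.39 and 10.40 in *EP1306*, with all *EP1306* arrays below those of both other genotypes. It differed from control by -0.24 (95% confidence interval -0.39 to -0.08, limma adjusted p = 0.205) in *EP1306* and by -0.07 (95% confidence interval -0.22 to 0.09, limma adjusted p = 0.623) in *BxJ*. *Prosalpha5*, the brightest alpha probe set, read 11.09, 10.91 and 11.12 in control, 10.86, 11.00 and 10.96 in *BxJ* and 10.95, 10.67 and 10.71 in *EP1306*. One array of *EP1306* overlapped with the lowest control array, and the difference was -0.26 (95% confidence interval -0.46 to -0.06, limma adjusted p = 0.309). The dimmest, *Prosalpha4*, is X-linked and read 9.62, 9.44 and 9.46 in control, 9.47, 9.50 and 9.43 in *BxJ* and 9.55, 9.42 and 9.34 in *EP1306*. Its genotypes overlapped, and the *EP1306* difference was -0.07 (95% confidence interval -0.23 to 0.09, limma adjusted p = 0.775). *Prosalpha2* and *Prosalpha7* differed by -0.14 and -0.19 in *EP1306*, also with overlap, and *Prosalpha6*, which did not overlap with control, by -0.23.

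In the ATPase ring, *Rpt4* came nearest to the threshold after *Prosbeta7*. This X-linked gene read 10.78, 10.58 and 10.63 in control, 10.55, 10.63 and 10.56 in *BxJ* and 10.41, 10.38 and 10.29 in *EP1306*. Every *EP1306* array was below every array of the other genotypes, while *BxJ* and control overlapped. *Rpt4* differed by -0.30 (95% confidence interval -0.44 to -0.16, limma adjusted p = 0.0739) in *EP1306*, an intensity (plus 16) lower by 18.9%, and passed the test (limma adjusted p = 0.0323) where probe sets with a mean intensity under 32 were set aside beforehand. *Rpt2* read 10.72, 10.56 and 10.71 in control, 10.43, 10.71 and 10.47 in *BxJ* and 10.50, 10.38 and 10.24 in *EP1306*, and *EP1306* differed from control by -0.29 (95% confidence interval -0.51 to -0.07, limma adjusted p = 0.297). *Rpt5*, the brightest of the ATPase probe sets, read 10.82, 10.65 and 10.68 in control, 10.53, 10.66 and 10.69 in *BxJ* and 10.63, 10.60 and 10.44 in *EP1306*. *EP1306* arrays lay just below the control arrays, with a difference of -0.16 (95% confidence interval -0.33 to 0.01, limma adjusted p = 0.541). *Rpt3* read 10.67, 10.38 and 10.59 in control, 10.36, 10.63 and 10.47 in *BxJ* and 10.52, 10.32 and 10.24 in *EP1306*. The genotypes overlapped and the difference was -0.18 (95% confidence interval -0.43 to 0.06, limma adjusted p = 0.661).

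The Rpn subunits had the lowest class median in *EP1306*, -0.27 against control, compared with -0.21 for alpha, -0.21 for beta and -0.24 for Rpt subunits. The classes were not tested against each other. *EP1306* arrays lay below all control arrays for 8 of the 10 Rpn genes, 3 of 4 Rpt genes, 5 of 6 beta genes and 2 of 6 alpha genes. The same separation was seen in 8.17% of all probe sets and in 316 of the 1486 of like intensity. *Rpn11*, the deubiquitinase that cuts ubiquitin chains from substrates, read 11.14, 11.01 and 11.14 in control, 10.91, 11.09 and 11.12 in *BxJ* and 10.91, 10.82 and 10.66 in *EP1306*. Its difference from control was -0.30 (95% confidence interval -0.48 to -0.11, limma adjusted p = 0.187), with *EP1306* replicate 1 level with the lowest *BxJ* array. *Rpn2*, a large scaffold of the regulatory particle, read 11.11, 11.01 and 11.17 in control, 11.01, 11.11 and 11.09 in *BxJ* and 10.84, 10.96 and 10.67 in *EP1306*. All 3 *EP1306* arrays were below every other array, and the difference from control was -0.27 (95% confidence interval -0.45 to -0.10, limma adjusted p = 0.201).

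*Rpn1*, the scaffold on which ubiquitin receptors and shuttle proteins dock, read 10.11, 9.98 and 10.31 in control, 10.02, 10.21 and 10.18 in *BxJ* and 9.85, 9.92 and 9.66 in *EP1306*. *BxJ* overlapped with control, with a difference of 0.00 (95% confidence interval -0.23 to 0.23, limma adjusted p = 0.989), and *EP1306* lay below both. The *EP1306* difference was -0.32 (95% confidence interval -0.55 to -0.09, limma adjusted p = 0.270) against control and -0.33 (95% confidence interval -0.56 to -0.10, limma adjusted p = 0.275) against *BxJ*, the lowest of the ubiquitous subunits in that comparison. *Rpn5*, a scaffold of the lid, was the brightest Rpn probe set and read 11.40, 11.32 and 11.41 in control, 11.28, 11.37 and 11.33 in *BxJ* and 11.28, 11.25 and 11.13 in *EP1306*. Every *EP1306* array was below the other genotypes, if only just below *BxJ*, and the difference from control was -0.16 (95% confidence interval -0.28 to -0.04, limma adjusted p = 0.301). For the other lid subunits the *EP1306* differences from control were -0.28 for *Rpn3*, -0.27 for *Rpn6*, -0.20 for *Rpn7*, -0.28 for *Rpn8* and -0.20 for *Rpn12*, and for *Rpn13*, a ubiquitin receptor, -0.17. *EP1306* overlapped with control for *Rpn12* and *Rpn13* and for none of the other 4.

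**Figure D2:**
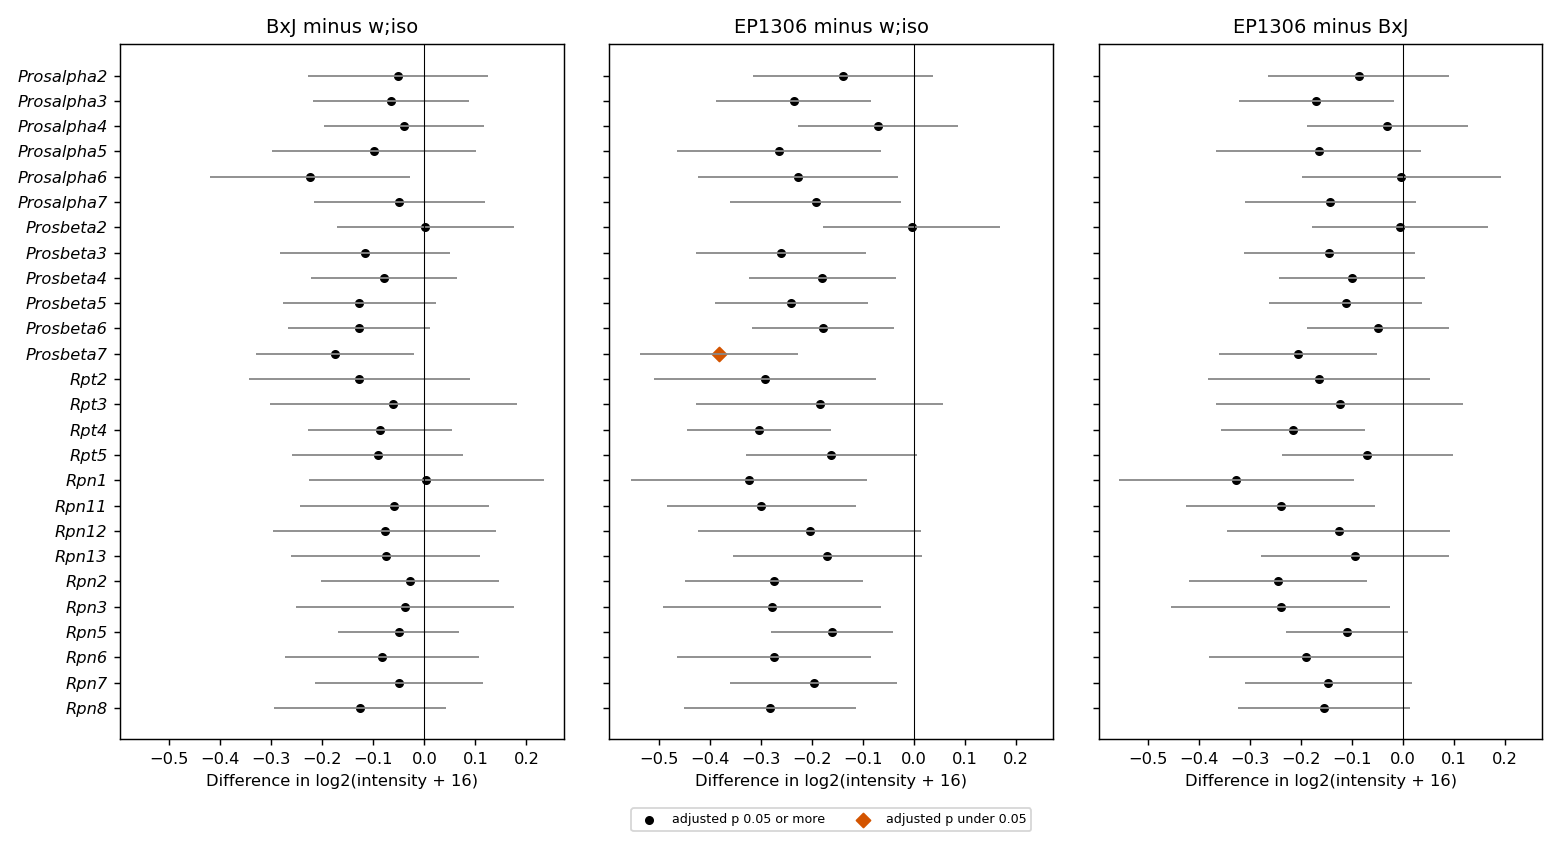
Difference between genotypes for each of the 26 ubiquitous subunits, in log2(intensity + 16), with 95% confidence intervals from limma. The panels set *BxJ* against control, *EP1306* against control, and *EP1306* against *BxJ*, and the diamond marks an adjusted p under 0.05. The middle panel is shifted to a median of -0.23, with *Prosbeta7* at -0.38 as the only diamond and *Prosbeta2* at -0.00.

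The gain-of-function mutant *BxJ* differed from control by less. The median over the 26 ubiquitous subunits was -0.08, an intensity (plus 16) lower by 5.19%, with single genes from -0.22 to 0.00, and 24 of 26 differences were below 0 (22 under quantile normalization, 26 under median centring, 18 when centred on probe sets of like intensity and 16 with the spike-in level as a covariate). The probe sets of like intensity had a median of -0.07 with 70.5% below 0. Without *BxJ* replicate 1, without control replicate 1 or with the spike-in covariate the median of the subunits was -0.04. Under quantile normalization or centring on probe sets of like intensity it was -0.03. No member was called, against 0.288% of all probe sets in either direction and 0.144% called lower, and the smallest adjusted p of a ubiquitous subunit was 0.386 (limma). At an unadjusted p under 0.05, 2 were lower, against 8.73% of all probe sets, and the arrays of 4 did not overlap with control, against 27.6% of all probe sets. Those 4 were *Prosalpha6*, *Prosbeta5*, *Prosbeta6* and *Prosbeta7*, with differences of -0.22, -0.13, -0.13 and -0.18. Among the 1486 probe sets of like intensity, 316 were lower at that p and 358 lay wholly below control. *Prosalpha6*, an alpha-ring subunit, had the lowest value of the comparison, was named for that reason, and read 10.29, 10.18 and 10.32 in control, 9.96, 10.14 and 10.02 in *BxJ* and 10.17, 10.07 and 9.87 in *EP1306*. Both mutants were below all control arrays for this gene and overlapped with each other.

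Set directly against *BxJ*, *EP1306* was lower by a median of 9.45% (-0.14 on the log2 scale), with all 26 ubiquitous subunits below 0 (25 under quantile normalization and 23 under median centring). Without *EP1306* replicate 3 the median was -0.09 with 22 of 26 below 0, and without *BxJ* replicate 2 it was -0.09 with 24 below 0. All probe sets had a median of 0.01 in this comparison with 38.4% below 0, and those of like intensity 0.02 with 44.1% below 0. No member was called, against 1.23% of all probe sets in either direction and 0.671% called lower, and the smallest adjusted p was 0.235, that of *Rpt4* (limma, -0.21). At an unadjusted p under 0.05, 8 of 26 were lower, against 4.96% of all probe sets and 156 of the 1486 of like intensity. Of these 8 subunits, 5 were Rpn subunits and the alpha, beta and Rpt classes gave 1 each. The arrays of *EP1306* and *BxJ* did not overlap for 6 genes: *Prosalpha3*, *Prosbeta7*, *Rpt4*, *Rpn1*, *Rpn2* and *Rpn5*. *EP1306* lay wholly below *BxJ* in 6.10% of all probe sets and in 200 of the 1486. In the F-test over the 3 genotypes, no member was called, against 1.49% of all probe sets and 78 of the 1486. An unadjusted p under 0.05 in that test was found for 16 ubiquitous subunits, against 11.9% of all probe sets and 510 of the 1486. The 3 comparisons share arrays and are given side by side.

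The subunits moved together between arrays of one genotype as well as between genotypes. The mean over the 26 genes was 10.92, 10.79 and 10.90 on the control arrays, 10.71, 10.86 and 10.79 in *BxJ*, and 10.76, 10.65 and 10.54 in *EP1306*. The highest *EP1306* array lay just below the lowest control array, and *BxJ* overlapped with both. *EP1306* replicate 3 was the lowest of all 9 arrays for 23 of the 26 genes, and *EP1306* replicate 2 for the other 3. Within the other genotypes, *BxJ* replicate 1 was the lowest of its 3 arrays for 23 genes and control replicate 2 for 22. The 1486 probe sets of like intensity were not lowest on *EP1306* replicate 3, with means of 10.38, 10.30 and 10.28 in control, 10.28, 10.26 and 10.30 in *BxJ*, and 10.28, 10.25 and 10.31 in *EP1306*.

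**Figure D3:**
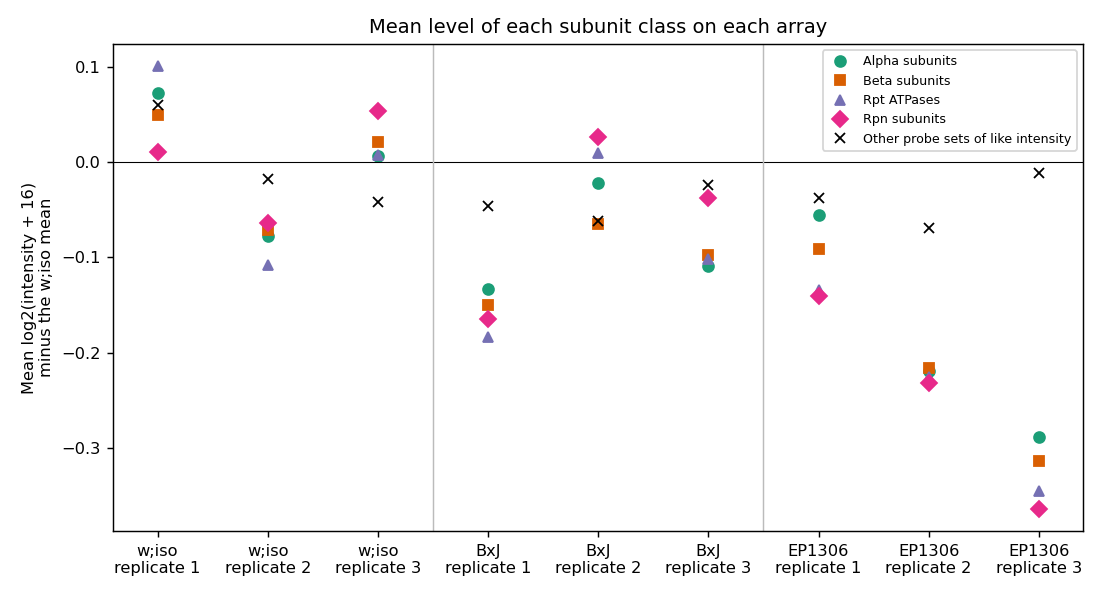
Mean level of each subunit class on each array, as log2(intensity + 16) minus the class mean of the 3 control (w;iso) arrays. Crosses are the 1486 other probe sets of like intensity. The 4 classes keep close to each other on each array and are lowest on *EP1306* replicate 3, where the crosses are near 0.

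After each genotype's mean was subtracted, all 325 pairs of ubiquitous subunits were positively correlated over the 9 arrays. The median Pearson correlation was 0.77 and the range 0.08 to 0.98, with medians of 0.81 within the core particle and 0.76 within the regulatory particle. Probe sets of like intensity had a median of 0.14 with 59.2% of pairs above 0. For the ubiquitin-proteasome partners the median was 0.17, and for the 9 subunits of the COP9 signalosome, a complex related to the lid, 0.41. These correlations describe 9 arrays that share an RNA source within each genotype, and no test was attached to them. The difference of *EP1306* from control lay on top of a spread shared by the subunits: the standard deviation of their array mean within genotypes was 0.087, against a median difference of -0.23.

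Other features of the arrays also differed between genotypes. The 18 hybridization spike-in probe sets averaged 10.63 ± 0.70 in control, 9.23 ± 0.49 in *BxJ* and 9.39 ± 0.46 in *EP1306* (SD, n = 3). With the spike-in level as a covariate the median of *EP1306* against control was -0.15. Transcripts of the male accessory gland, which heads should lack, were measured for 14 of 16 listed genes, and their mean ranged from 4.80 to 6.01 in control, 6.17 to 8.04 in *BxJ* and 4.80 to 6.40 in *EP1306*. Without the array of each genotype richest in them (control replicate 2, *BxJ* replicate 3 and *EP1306* replicate 1) the median was -0.33, and no member was called. Of the arrays left out, *EP1306* replicate 1 was the highest of its genotype for 24 of the 26 subunits. Control replicate 2 was the lowest of its genotype for 22. Leaving both out therefore widens the difference, whatever their content of accessory gland transcripts. Of 10 neuronal and photoreceptor markers of the head, 6 were measured, with 9-array means of 14.73 for *Arr2*, 13.67 for *trp*, 11.68 for *inaD*, 10.00 for *nSyb*, 9.06 for *elav* and 6.12 for *brp*. Their median difference from control was -0.16 in *BxJ*, with 6 of 6 below 0, and -0.11 in *EP1306*, with 4 of 6 below 0. Of all probe sets, 67.1% were below 0 in *BxJ* and 63.8% in *EP1306*. None was called (limma). *elav* was the lowest in *BxJ*, at -0.81 (limma adjusted p = 0.272). The part of these features in the differences of the subunits was otherwise not tested.

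The testis-type subunits were near the bottom of the intensity scale in all 3 genotypes. Their deposited intensities ran from 3.75 to 13.1, below the median probe set of every array (15.9 to 17.8). Values this low lay near a floor: on log2 of the intensity itself, the median SD within genotypes was 0.0556 for the testis-type genes and 0.0980 for the ubiquitous ones. How background was treated is unknown here, so these values need not be proportional to transcript. The mean over the 14 genes was 4.40 to 4.44 in control, 4.40 to 4.44 in *BxJ* and 4.39 to 4.42 in *EP1306*. Their 9-array means were 4.45 for *Prosalpha3T*, 4.44 for *Prosalpha4T1*, 4.37 for *Prosalpha4T2* and 4.40 for *Prosalpha6T* in the alpha family. In the beta family they were 4.31 for *Prosbeta2R1*, 4.39 for *Prosbeta2R2*, 4.42 for *Prosbeta4R1*, 4.56 for *Prosbeta4R2*, 4.42 for *Prosbeta5R1* and 4.36 for *Prosbeta5R2*, and in the regulatory particle 4.52 for *Rpn12R*, 4.38 for *Rpn13R*, 4.44 for *Rpt3R* and 4.35 for *Rpt4R*. None was called in any comparison. At an unadjusted p under 0.05, 1 of 14 was lower in *BxJ* against control, against 8.73% of all probe sets, and none in the other comparisons. The smallest adjusted p was 0.370 (limma, *Rpt3R* in *BxJ*).

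*Rpt3R*, a copy of the ATPase gene *Rpt3*, read 4.53, 4.45 and 4.44 in control, 4.40, 4.42 and 4.41 in *BxJ* and 4.43, 4.44 and 4.40 in *EP1306*. Every *BxJ* and *EP1306* array was below the control arrays, if only just for *EP1306*. Single arrays stood apart for 3 genes, of which *Prosbeta5R1* and *Prosalpha4T2* were chosen after their values were seen. *Prosbeta4R2* read 4.50, 4.86 and 4.63 in control, 4.51, 4.51 and 4.51 in *BxJ* and 4.51, 4.52 and 4.49 in *EP1306*, so that control replicate 2 was the highest. *Prosbeta5R1* read 4.38, 4.39 and 4.38 in control, 4.38, 4.37 and 4.73 in *BxJ* and 4.38, 4.38 and 4.36 in *EP1306*, and *Prosalpha4T2* read 4.34, 4.36 and 4.43 in control, 4.33, 4.34 and 4.50 in *BxJ* and 4.35, 4.35 and 4.33 in *EP1306*. Both were highest on *BxJ* replicate 3. The dimmest member, *Prosbeta2R1*, read between 4.30 and 4.32 on all 9 arrays. Testis germ-line markers, all 20 of which were measured, averaged 4.71, 5.13 and 4.79 on the control arrays, 5.09, 4.96 and 5.68 in *BxJ* and 4.94, 4.76 and 4.72 in *EP1306*. These markers were highest in control on replicate 2, as *Prosbeta4R2* was, and in *BxJ* on replicate 3, as *Prosbeta5R1* and *Prosalpha4T2* were. On *BxJ* replicate 3, where the markers were highest of all 9 arrays, *Prosbeta4R2* was not raised (4.51). There *Rpt3R* (4.41) lay between its other *BxJ* arrays. Only the 3 genes with an array apart, of the 14 testis-type genes, were set beside the markers in this way. *Prosalpha4T2* was highest in control on replicate 3. The part of germ-line RNA in those values was not tested.

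Among the 24 measured genes that work with the proteasome, 1 was called higher and 1 lower in *EP1306* against control heads. Over all probe sets 1.14% were called in either direction and 0.687% lower. Both calls were lost in every fit that left out an array. Of 29 partners listed, 24 were measured, among them assembly factors, ubiquitin genes, conjugating enzymes, deubiquitinases and shuttle proteins. Their median difference was -0.09 in *EP1306* against control and -0.03 in *BxJ* against control, and none was called in *BxJ* against control (limma). At an unadjusted p under 0.05, 7 of the 24 were lower in *BxJ* against control, against 8.73% of all probe sets. In *EP1306* against control 7 were lower, against 6.38% of all probe sets, and 1 was higher, against 643 of the 18769 probe sets. *Uch-L5*, a deubiquitinase that docks on Rpn13, read 9.11, 8.98 and 9.11 in control, 8.88, 9.03 and 8.95 in *BxJ* and 8.75, 8.59 and 8.66 in *EP1306*. All *EP1306* arrays were below every other array, and *Uch-L5* fell by 0.40 against control (95% confidence interval -0.55 to -0.25, limma adjusted p = 0.0327), an intensity (plus 16) lower by 24.1%. Against *BxJ* the difference was -0.29 (95% confidence interval -0.44 to -0.14, limma adjusted p = 0.117).

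*maf-S* encodes the small Maf protein that pairs with the Cnc transcription factor, a known activator of proteasome genes. It read 10.85, 10.86 and 10.72 in control, 10.81, 10.77 and 10.77 in *BxJ* and 11.17, 11.03 and 11.13 in *EP1306*, higher on every *EP1306* array than on any other. *maf-S* rose by 0.30 against control (95% confidence interval 0.18 to 0.42, limma adjusted p = 0.0428) and by 0.33 against *BxJ* (95% confidence interval 0.20 to 0.45, limma adjusted p = 0.0301). The calls of *Uch-L5* and *maf-S* against control were each kept in 0 of the 9 fits that left out an array, with adjusted p-values up to 0.115 and 0.137, and were also lost with median centring (0.0596 and 0.0594) and with the replicate number as a block (0.0640 and 0.0550). The call of *maf-S* against *BxJ* was kept in 3 of those 9 fits, with adjusted p-values up to 0.108 (without *EP1306* replicate 3), and was lost in a fit of the 2 genotypes alone (0.0547) and without the arrays richest in accessory gland transcripts (0.227). *cnc* itself differed by -0.06 in *EP1306* and by -0.06 in *BxJ*, and neither passed the test. *ben*, an X-linked gene for a ubiquitin-conjugating enzyme, read 12.10, 12.27 and 12.18 in control, 11.72, 11.79 and 11.91 in *BxJ* and 12.09, 12.18 and 12.18 in *EP1306*. All *BxJ* arrays were below the others, by -0.37 (95% confidence interval -0.52 to -0.23, limma adjusted p = 0.0896) against control. Such a separation of *BxJ* below control was seen in 27.6% of all probe sets. The F-test of *ben* over the 3 genotypes was past the threshold (limma adjusted p = 0.0441), and the difference of *EP1306* from *BxJ* was 0.34 (95% confidence interval 0.20 to 0.49, limma adjusted p = 0.0501). In the 9 fits that left out an array, the limma adjusted p of that difference ran from 0.0406 to 0.173 and passed in 1.

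**Figure D4:**
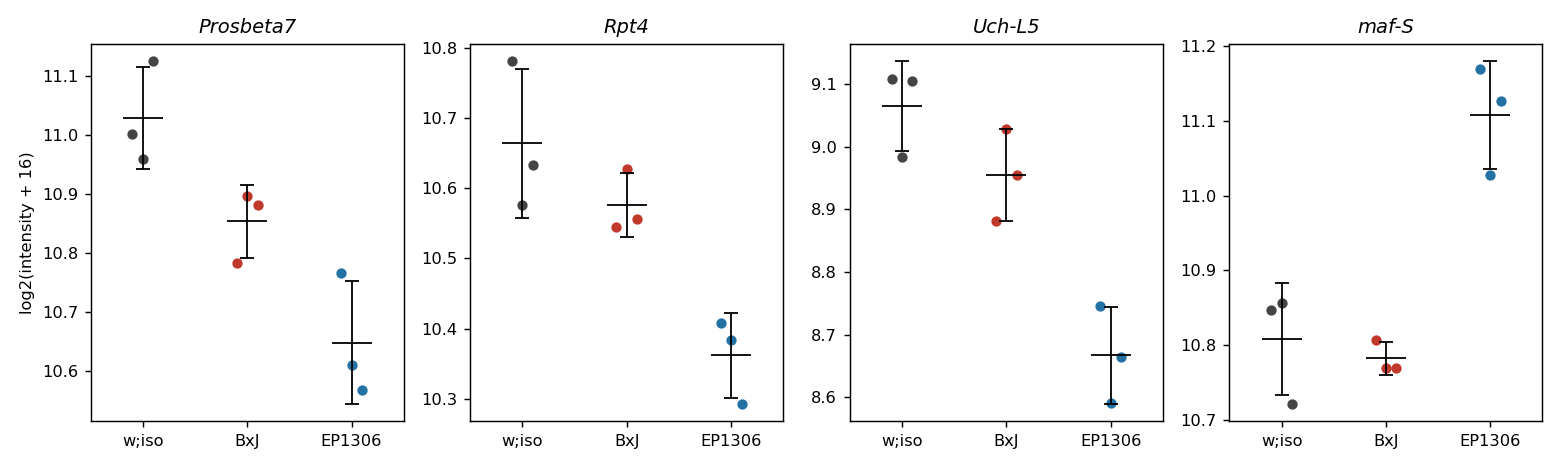
Levels of *Prosbeta7*, *Rpt4*, *Uch-L5* and *maf-S* in log2(intensity + 16) for each genotype. Points are arrays, long bars are means and error bars are 1 SD (n = 3). The *EP1306* arrays are below the control arrays for the first 3 genes and above them for *maf-S*. The vertical axes do not start at 0.

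Other partners named for their roles gave values that did not pass the test. They do not stand for the list. In *EP1306* against control, 16 of the 24 partners were below 0, or 66.7% against 63.8% of all probe sets, whereas the 5 given here were all below 0. In *EP1306* against control, *Pomp*, the chaperone of core assembly, differed by -0.21, *Sem1*, a small lid subunit, by -0.25, and *TER94*, the ATPase that delivers ubiquitinated substrates, by -0.16. The polyubiquitin genes *Ubi-p63E* and *Ubi-p5E* differed by -0.16 and -0.23. In *BxJ* these 5 differences were -0.23, -0.18, 0.02, 0.00 and -0.20. All 9 listed subunits of the COP9 signalosome were measured and none was called in any comparison (limma, with 1 of 9 at an unadjusted p under 0.05, *CSN6* in *BxJ* against control, where 8.73% of all probe sets were lower). Their median was -0.02 in *EP1306* and -0.09 in *BxJ* against control. *CSN6* read 7.20, 7.11 and 7.07 in control, 6.91, 6.95 and 6.80 in *BxJ* and 7.01, 6.85 and 6.97 in *EP1306*, and *CSN7* read 9.34, 9.36 and 9.29 in control, 9.24, 9.19 and 9.23 in *BxJ* and 9.23, 9.17 and 9.36 in *EP1306*. *CSN6* was lower than control on all arrays of both mutants, by -0.24 (95% confidence interval -0.44 to -0.04, limma adjusted p = 0.369) in *BxJ* and -0.18 (95% confidence interval -0.38 to 0.01, limma adjusted p = 0.559) in *EP1306*.

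**Figure D5:**
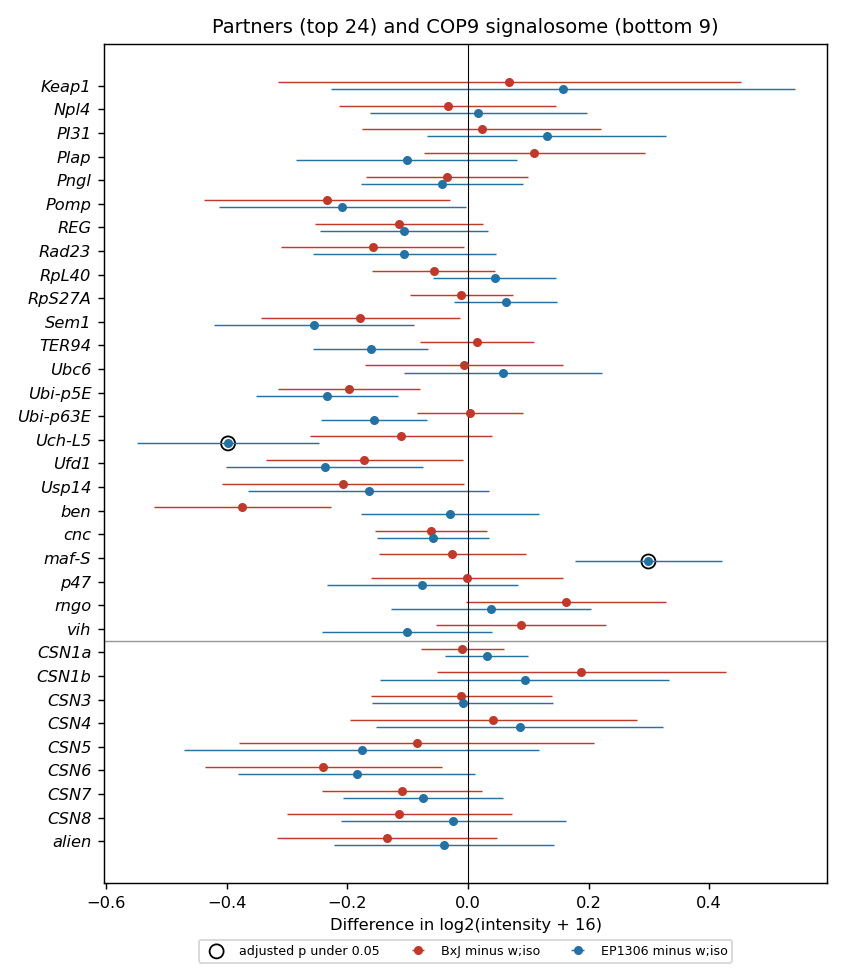
Differences of *BxJ* and *EP1306* from control (w;iso) in log2(intensity + 16), with 95% confidence intervals from limma, for the 24 measured partners of the proteasome (top) and the 9 COP9 signalosome subunits (bottom). The rings mark an adjusted p under 0.05, which *Uch-L5* (-0.40) and *maf-S* (0.30) reached in *EP1306*.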

How the data were processed

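Total RNA from fly heads was labelled and hybridized to 9 arrays (3 per genotype), and the authors deposited 1 linear intensity per probe set, made with MAS5 according to the submitters' processing notes; its settings are not given in the sources used here. Probe sets with means no higher than the highest testis-type mean varied less within genotypes than the ubiquitous subunits. On log2 of the intensity itself, their median SD was 0.0772 against 0.0980. Bright probe sets in general were not compared, and whether MAS5 alone gave the low values is unsettled. Of 18952 probe sets, 183 controls were set aside. The other 18769 were analysed as log2(intensity + 16) without further scaling, since array medians differed by 0.082 on the log2 scale. Genotypes were compared with limma 3.58.1 in R 4.3.3 (intensity trend, all 9 arrays, Benjamini-Hochberg over all 18769, threshold 0.05), a procedure tested on simulated data. Intensities ran from 2.83 to 47416, arrays of a genotype correlated at 0.994 to 0.998, and no 2 were identical.

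Gene symbols came from the platform annotation and chromosome arms from a RefSeq table. All 9 values are given for members that were called, the 2 of each class with the smallest F-test p, and the brightest and dimmest of each class; of each partner list, for those called and the 2 with the smallest p. Members and lists were chosen with earlier results of these data known. Alternatives changed the pseudocount (1 or 64), scaling, filter, trend, block, samples, test and covariates. Of the partners, 5 listed genes were not analysed here.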

Additional observations from a re-analysis of the deposited data

How the results depend on the processing

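The median of the ubiquitous subunits stayed below 0 in all 3 comparisons under each of the 21 alternatives, from -0.33 to -0.15 for *EP1306* against control, from -0.11 to -0.03 for *BxJ* against control and from -0.22 to -0.09 for *EP1306* against *BxJ*. Several of the 21 could not move it, because they leave these differences unchanged. They are the intensity filter, no trend, the block, fits of 2 genotypes, all single-gene probe sets, and leaving out an array of the genotype not compared. Leaving out 1 array gave -0.29 to -0.18, -0.11 to -0.04 and -0.21 to -0.09. The value of -0.33 came from leaving out the array of each genotype richest in accessory gland transcripts. That removed the *EP1306* array highest, and the control array lowest, for most subunits. The single member called in *EP1306* against control, *Prosbeta7*, became 0 with quantile normalization, without the intensity trend, in a fit of the 2 genotypes alone, with the spike-in covariate, without the accessory-gland-rich arrays, and when centred on probe sets of like intensity, an alternative chosen after seeing the data. Its cause was not tested. With probe sets of mean intensity under 32 set aside, 2 members were called there and 1 in the F-test, where 0 had been; fewer probe sets were then tested. Leaving out 1 array gave 0 to 1 calls. The call was kept with pseudocounts of 1 and 64 and with median centring.

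The methods' t-test at its unadjusted threshold, on the same values, called 12 members in *EP1306* against control, 4 in *BxJ* against control and 3 in *EP1306* against *BxJ*, and the methods' analysis of variance called 10. After Benjamini-Hochberg adjustment each called 0. Over all probe sets, the limma counts of 54, 214 and 230 (in the order *BxJ* against control, *EP1306* against control and *EP1306* against *BxJ*) became 1936, 1199 and 1660 with the unadjusted t-test and 0, 11 and 25 after adjustment. They became 120, 397 and 315 with the intensity filter, 15, 88 and 153 in fits of 2 genotypes, and 5, 49 and 202 with the spike-in covariate. Without the accessory-gland-rich arrays they were 48, 35 and 130, and centred on like intensity 109, 341 and 345. The F-test's 279 became 1896 and 98 with the analysis of variance unadjusted and adjusted.

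The deviations of arrays with the same replicate number correlated at -0.38 to 0.29, with values of both signs. For arrays of different genotypes with different numbers the correlations ran from -0.43 to 0.46. No test was attached to these values, and whether the numbers pair the samples was not tested. With the replicate number as a block, 0 members were called in *EP1306* against control, with a lowest adjusted p of 0.0811 (limma).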
